A study of Mus musculus with 12 samples.

Results

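The question taken up here is whether R-Roscovitine changed gene expression differently in motoneuron cultures that lack mouse Smn than in cultures that have it. All 12 libraries of the series enter, in 4 groups of 3: treated SMA (Smn-/-;SMN2 with 0.5 µM R-Roscovitine), untreated SMA, treated control (Smn+/+;SMN2 with the same dose) and untreated control. The cultures were primary motoneuron cultures of strain FVB mice, and every group carries the human SMN2 transgene, so that the 2 genotypes differ in the mouse gene. For each genotype, a treated and an untreated library with the same number form a pair, which gives 3 treatment differences in SMA and 3 in control. The interaction of a gene is its mean difference in SMA minus its mean difference in control, on the scale log2(FPKM + 1). An interaction above 0 means that treated relative to untreated expression was higher in SMA than in control. FPKM is a read level per length of transcript and per depth of library. On this scale the changes of weakly expressed genes are understated.

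R-Roscovitine is a purine that blocks cyclin-dependent kinases, the cell-cycle kinases Cdk1 and Cdk2, the neuronal kinase Cdk5, and Cdk7 and Cdk9, which act on RNA polymerase II. It also slows the closing of presynaptic voltage-gated calcium channels of the Cav2 family, which let in the calcium that triggers transmitter release. SMN is needed to assemble the small nuclear ribonucleoproteins of the spliceosome, its loss causes spinal muscular atrophy (SMA), and SMN-deficient motoneurons in culture are known for reduced calcium signals at their axon terminals.

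No gene had an interaction that passed the test. Among 14982 genes, limma with Benjamini-Hochberg adjustment called 0 (0%) at an adjusted p under 0.05, and the lowest adjusted p was 0.806. At an unadjusted p under 0.05 there were 742 genes (4.95%), of which 515 (3.44%) were higher in SMA and 227 (1.52%) lower. That split was 442 higher and 279 lower with median-of-ratios scaling, 355 and 277 with a common FPKM sum without mitochondrially encoded genes, and 401 and 312 with quantile normalization. None of the 18 other settings called a gene either. The response within each genotype did not pass the threshold either. In SMA 0 genes were called and 1098 (7.33%) had an unadjusted p under 0.05, 732 (4.89%) of them higher with treatment and 366 (2.44%) lower. In control 0 were called and 568 (3.79%) had such a p, 179 (1.19%) higher and 389 (2.6%) lower. Averaged over both genotypes 0 were called and 915 (6.11%) had such a p, 464 (3.1%) higher and 451 (3.01%) lower. With libraries weighted by their noise, the control response had 657 called genes and the averaged response 99, and the interaction still had 0. Nothing in the labels says that the numbered libraries came from separate cultures, so every p measures only the spread between these libraries.

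A p that misses the threshold does not show that the genotypes responded alike, and the intervals say how much difference the data leave room for. The median absolute interaction was 0.16, against a median standard error of 0.19 and a median 95% interval of ±0.42. For 13852 genes (92.5%) the whole interval lay within 1 log2 unit of 0, which is a change of less than 2-fold on the FPKM + 1 scale. An absolute interaction over 1 log2 unit was estimated for 37 genes (0.247%), 20 of them (0.133%) higher in SMA. The median was 0.03, with a median difference of 0.00 in SMA and -0.02 in control, and 8319 genes (55.5%) lay above 0 and 6663 (44.5%) below. This small shift depended on the scale: with the same 3 scalings in turn the median was 0.01, -0.03 and 0.00, and 51.5%, 45.5% and 49.7% of genes lay above 0.

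The treatment differences of the 6 pairs had little in common. Their SD over genes was 0.28, 0.30 and 0.23 log2 units in SMA pairs 1 to 3 and 0.43, 0.21 and 0.23 in control pairs 1 to 3. Control pair 1 therefore stood apart, with 304 genes changed by more than 1 log2 unit, against 40 and 42 in the other control pairs and 71, 97 and 54 in the SMA pairs. Across genes, the differences of SMA pairs 1 and 2 correlated at Pearson r = 0.30, those of SMA pair 3 with the other SMA pairs at 0.10 and 0.08. Within control the r were 0.00, -0.19 and 0.03. Control pair 1 was negatively correlated with all 3 SMA pairs, at -0.24, -0.10 and -0.09. Control pair 3 was positively correlated with SMA pairs 1 and 2, at 0.22 and 0.24, about as closely as these pairs with each other. The mean differences of the genotypes had r = -0.04, and r = 0.22 when control pair 1 was left out. These r are across 14982 genes, which are not independent replicates, and the pairs share no library.

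**Figure D1:**
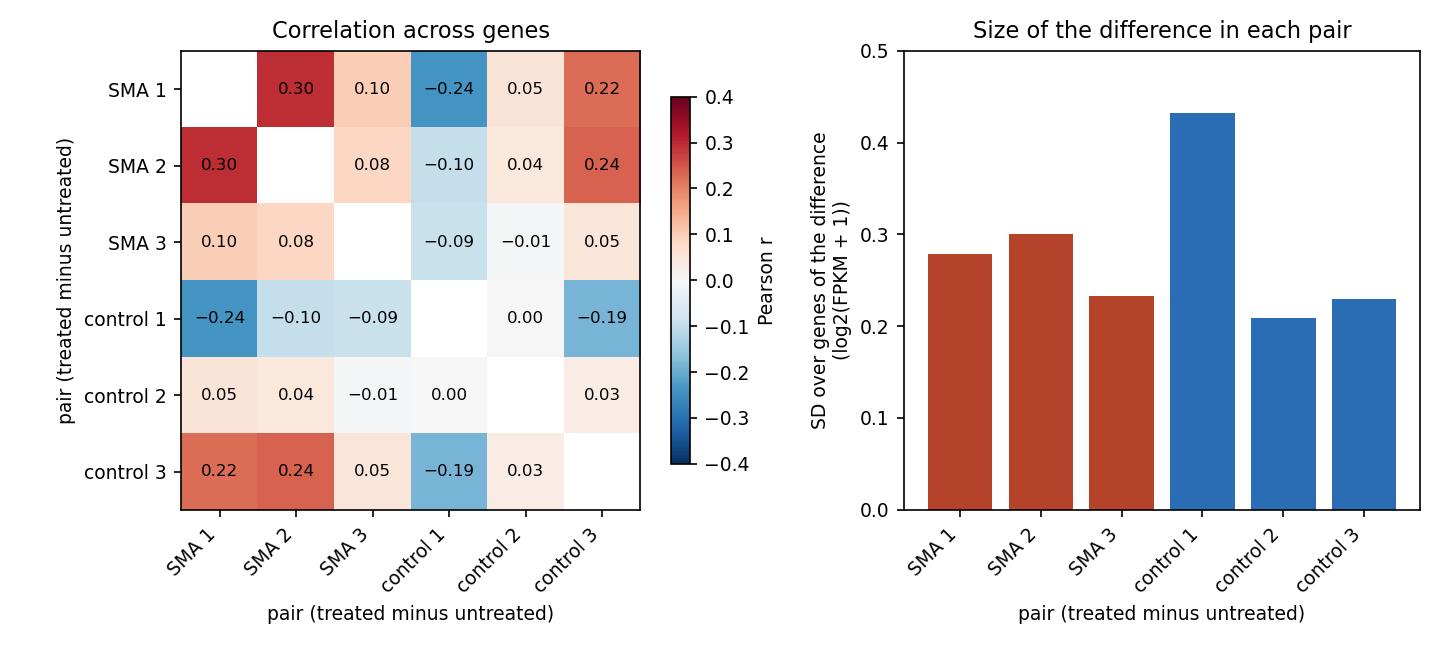
Left, Pearson correlation across 14982 genes between the treated minus untreated differences of the 6 pairs, with SMA pairs before control pairs. Right, SD over genes of each pair's difference in log2(FPKM + 1). Control pair 1 has the largest SD, 0.43, and negative r with the 3 SMA pairs.

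Library measures moved with the groups as follows. Depth, read from the smallest step between low FPKM values, was 22.2 ± 2.06 M reads in SMA and 26.5 ± 1.99 M reads in control libraries (SD, n = 6 each), and its interaction was 0.85 M reads (exact permutation test, two-sided, p = 0.6). Mitochondrially encoded transcripts took 23.7, 20.2 and 19.96% of the FPKM sum in treated SMA libraries against 22.98, 19.3 and 20.4% in untreated SMA libraries. They took 20.6, 21.3 and 19.99% in treated control libraries against 17.7, 19.4 and 18.5% in untreated control libraries. The treated share was thus higher by 2.93, 1.93 and 1.48 points in the control pairs, above all 3 SMA differences of 0.74, 0.96 and -0.43 points. The interaction of -1.69 points had an exact permutation p of 0.1, the smallest that 3 against 3 allows. The number of genes at 1 FPKM or more, 14463 to 14581 per library, had an interaction of 63.7 genes (exact p = 0.2).

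The targeted gene was low in every SMA library, as labelled. Smn1 (chromosome 13, 100124852 to 100137690, GRCm38) had 6.82, 5.04 and 7.35 FPKM in treated SMA and 6.11, 7.19 and 8.58 FPKM in untreated SMA libraries. It had 45.1, 38.1 and 39.2 FPKM in treated control and 30.9, 41.2 and 51.2 FPKM in untreated control libraries. SMA and control levels did not overlap with or without the compound. Treated and untreated levels overlapped in both genotypes. The Smn1 interaction was -0.18 ± 0.25 (SE; 95% interval -0.74 to 0.37; exact permutation p = 0.6), and without control pair 1 its sign turned, to 0.08.

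The marker genes that define motoneurons were nearly absent from the cultures. Chat, the enzyme that makes acetylcholine, was at 0 FPKM in 9 of 12 libraries and at most 0.06 in the others, and the motoneuron transcription factor Mnx1 was at 0 in all 12. Isl1, Isl2, Lhx3 and Slc5a7 stayed under 1 FPKM in every library. Gad1, which makes the inhibitory transmitter GABA, had 54.5 to 99.3 FPKM in treated SMA, 52.8 to 61.2 in untreated SMA, 93.7 to 131 in treated control and 76.7 to 148 in untreated control libraries. The cultures are therefore described here by their label, with these marker levels beside it.

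Genes whose 3 SMA differences all lay above the 3 control differences numbered 1063 (7.1%), and genes with all 3 below numbered 662 (4.42%). Of these, 269 genes (1.8% of those tested) were higher with treatment in every SMA pair and lower in every control pair, and 169 (1.13%) were lower in every SMA pair and higher in every control pair. The excess of genes higher in SMA was smaller, absent or reversed once libraries were scaled. With median-of-ratios scaling 896 genes had all SMA differences above and 831 below, with a common FPKM sum without mitochondrially encoded genes 830 and 766, and with quantile normalization 851 and 885. The opposite movements, up in SMA before down in SMA, then numbered 217 and 214, 202 and 204, and 212 and 237. By comparison 309 genes (2.06%) were higher with treatment in all 6 pairs and 356 (2.38%) lower in all 6. In SMA 2906 genes (19.4%) were higher in all 3 pairs and 2550 (17%) lower, against 1236 (8.25%) and 2010 (13.4%) in control. With the common FPKM sum these counts were 2730 and 2743 in SMA, and 1628 and 1420 in control.

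The 10 genes of lowest p above 0 had interactions between 0.67 and 2.16, and all had an adjusted p of 0.806. They were A430018G15Rik, Ptpn5, Dcaf11, Otud7a, Tmem198, Nlgn2, 2210417K05Rik, Ccdc116, 2810408A11Rik and AI182371. In 6 of the 10 the difference was above 0 in every SMA pair and below 0 in every control pair. In 5 of the 10 the mean level was under 3 FPKM.

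Ptpn5 (chromosome 7, 47077798 to 47133684) encodes STEP, a tyrosine phosphatase of neurons that acts on glutamate receptors and MAP kinases. It had 17.1, 25.6 and 21.5 FPKM in treated SMA libraries against 13.1, 12.9 and 14.8 FPKM in untreated SMA libraries. In treated control libraries it had 25.9, 16.8 and 18.5 FPKM against 38.9, 20.4 and 19.9 FPKM in untreated control libraries. Every treated SMA library exceeded every untreated SMA library, while each treated control library was below its own untreated partner. The differences were 0.37, 0.94 and 0.51 in SMA and -0.57, -0.27 and -0.10 in control. The interaction was 0.92 ± 0.19 (SE; limma, 95% interval 0.49 to 1.35; unadjusted p = 0.00095, adjusted p = 0.806), and 0.79 without control pair 1.

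Nlgn2 (chromosome 11, 69823122 to 69837784) encodes neuroligin 2, an adhesion protein on the receiving side of inhibitory synapses. It had 29.1, 32.4 and 29.9 FPKM in treated SMA against 21.6, 19.4 and 22.1 FPKM in untreated SMA libraries, and 34.6, 26.2 and 25.3 FPKM in treated control against 46.01, 27.3 and 27.1 FPKM in untreated control libraries. The SMA groups did not overlap. In control, pairs 2 and 3 differed by -0.05 and -0.10 and pair 1 by -0.40. The interaction was 0.70 ± 0.16 (SE; 95% interval 0.35 to 1.05; limma unadjusted p = 0.0014, adjusted p = 0.806).

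Dcaf11 (chromosome 14, 55560006 to 55570065) encodes a substrate receptor of a cullin 4 ubiquitin ligase. Its SMA differences were the most even of these genes, at 0.39, 0.40 and 0.37, from 14.4, 15.3 and 18.02 FPKM in treated against 10.7, 11.4 and 13.7 FPKM in untreated libraries. In control it had 14.03, 10.9 and 12.4 FPKM in treated and 19.2, 13.3 and 13.8 FPKM in untreated libraries, differences of -0.43, -0.27 and -0.14. The interaction was 0.67 ± 0.14 (SE; limma unadjusted p = 0.001, adjusted p = 0.806). Otud7a, a deubiquitinase, was expressed at 0.62 to 3.92 FPKM and had an interaction of 0.95 ± 0.21 (SE). Its lowest library was untreated SMA 2 and its highest untreated control 1.

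The largest interaction of the 10 belonged to A430018G15Rik, a non-coding transcript on the other strand of the calcium channel gene Cacnb4. It had 1.62, 3.02 and 2.83 FPKM in treated SMA against 2.17, 1.42 and 0.57 FPKM in untreated SMA libraries, and 0.96, 1.37 and 0.08 FPKM in treated control against 5.58, 3.76 and 3.25 FPKM in untreated control libraries. The control groups were separate and the SMA groups overlapped, with a mean difference of 0.58 in SMA and -1.58 in control and an interaction of 2.16 ± 0.40 (SE). Whether the reads were counted by strand is not given in the sources used here, and reads of overlapping genes may be shared. The same holds for 2210417K05Rik, which overlaps Hk1, for Tmem198, which overlaps Obsl1, for Ccdc116, which overlaps Ydjc, and for Ptpn5 and Dcaf11, which overlap non-coding genes on their other strands.

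The 10 genes of lowest p below 0 had interactions between -1.56 and -0.56, again with an adjusted p of 0.806. They were Gm16053, Gm26790, Gm14620, Spp1, Snx25, Gm4899, Gm10074, Kbtbd8, Nudt7 and Cnot2. In 9 of the 10 the difference was below 0 in every SMA pair and above 0 in every control pair, and 3 of the 10 are annotated as pseudogenes, which may share reads with their parent genes. Gm16053 lies within Ndufc2 on the same strand, and Gm26790, Kbtbd8, Snx25 and Cnot2 overlap genes on their other strands. Spp1 is the exception to the opposite signs.

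Spp1 (chromosome 5, 104435118 to 104441050) encodes osteopontin, a secreted matrix protein. It had 26.9, 15.2 and 9.78 FPKM in treated SMA against 34.2, 23.7 and 14.3 FPKM in untreated SMA libraries. Control libraries had 25.5, 28.7 and 23.1 FPKM when treated and 20.8, 24.7 and 23.4 FPKM when untreated. Each SMA pair was lower with treatment, but the pairs themselves differed so much in level that the SMA groups overlapped. The interaction was -0.64 ± 0.15 (SE; 95% interval -0.98 to -0.31; limma unadjusted p = 0.0018, adjusted p = 0.806).

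Snx25 (chromosome 8, 46033261 to 46152159) encodes a sorting nexin, a protein of membrane traffic. It had 8.22, 3.84 and 5.91 FPKM in treated SMA against 9.14, 8.05 and 9.498 FPKM in untreated SMA libraries, and 12.1, 11.8 and 13.1 FPKM in treated control against 7.61, 10.9 and 8.45 FPKM in untreated control libraries. In control the treated libraries were all above the untreated ones. In SMA they overlapped by 1 library, and the interaction was -0.98 ± 0.23 (SE; adjusted p = 0.806). Cnot2, a subunit of the CCR4-NOT complex that removes poly(A) tails, had 14.6, 14.9 and 19.3 FPKM in treated SMA against 22.4, 19.5 and 23.03 FPKM in untreated SMA libraries, and 25.8, 26.2 and 23.7 FPKM in treated control against 21.8, 21.97 and 23.6 FPKM in untreated control libraries. Neither genotype's groups overlapped, and the interaction was -0.56 ± 0.15 (SE; adjusted p = 0.806). Kbtbd8, an adaptor of cullin 3 ubiquitin ligases, and Nudt7, a peroxisomal coenzyme A hydrolase, had interactions of -0.74 and -0.71.

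**Figure D2:**
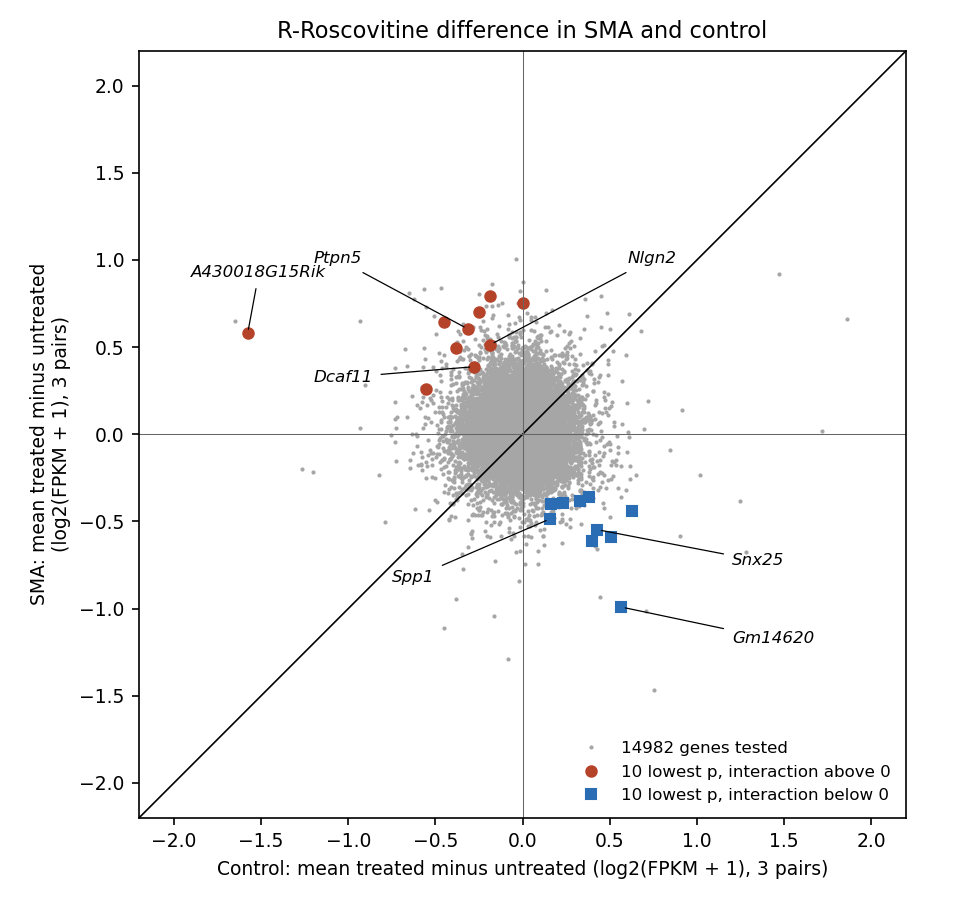
Mean treated minus untreated difference of each of the 14982 genes, in SMA (vertical) and control (horizontal), in log2(FPKM + 1). The line marks equal differences. Red circles are the 10 genes of lowest p with an interaction above 0 and blue squares the 10 below 0. They lie away from the line, and none had an adjusted p under 0.05.

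Among genes that averaged at least 10 FPKM and whose pairs did not overlap, some of the largest interactions rested on control pair 1. Gm20716, which overlaps Adnp and Dpm1 on the same strand, had 7.06, 3.73 and 2.04 FPKM in treated SMA against 21.6, 11.2 and 7.82 FPKM in untreated SMA libraries. It had 18.1, 11.5 and 11.2 FPKM in treated control against 1.77, 11.2 and 16.9 FPKM in untreated control libraries. Its SMA differences were -1.49, -1.37 and -1.53 and its control differences 2.78, 0.04 and -0.56. The interaction of -2.22 ± 0.69 (SE) shrank to -1.21 without control pair 1, and the SMA difference of -1.47 was then the 1 called response in SMA (limma, adjusted p = 0.0185). The SMA libraries are the same in both fits. The fit estimates the spread over both genotypes together, so leaving out a control pair changes the p in SMA. Luc7l3, a splicing factor that associates with the U1 particle, had -0.85, and -0.58 without control pair 1. Gm11175, which lies on the other strand of Jund, had 1.19, and 0.64 without that pair, and Gm10320 had 0.96, and 0.42. Yars2, the mitochondrial tyrosyl-tRNA synthetase, had 7.36, 11.1 and 9.34 FPKM in treated SMA against 14.5, 10.3 and 13.4 FPKM in untreated SMA libraries, and 12.02, 14.9 and 15.5 FPKM in treated control against 6.34, 10.9 and 13.8 FPKM in untreated control libraries. The Yars2 interaction was -0.89 ± 0.27 (SE).

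The kinases that R-Roscovitine blocks, with their cyclins and activators, had no common direction. Of 23 members tested, 0 were called, 10 had an interaction above 0 and 13 below, with a median of -0.04, against a median of 0.03 over all genes. Differences did not overlap in 6 members, 2 of them higher in SMA and 4 lower, against 7.1% and 4.42% of all genes. Cdk5r1, which encodes p35, the activator of Cdk5 in neurons, had 24.4, 24.1 and 22.7 FPKM in treated SMA against 18.2, 16.1 and 15.5 FPKM in untreated SMA libraries, and 34.2, 16.2 and 23.5 FPKM in treated control against 37.4, 19.03 and 20.7 FPKM in untreated control libraries. All treated SMA libraries were above all untreated ones and the control groups overlapped. The interaction was 0.55 ± 0.15 (SE; 95% interval 0.21 to 0.89; limma unadjusted p = 0.005, adjusted p = 0.806). Csnk1e, a casein kinase, was the other member higher in SMA, at 0.20.

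On the lower side stood Ccne2 and Ccne1, the E-type cyclins that activate Cdk2, and Cdk7 and Ccnh, the kinase and cyclin of the CDK-activating complex. Ccne2 had 20.1, 22.2 and 21.3 FPKM in treated SMA against 29.4, 31.8 and 27.9 FPKM in untreated SMA libraries, and 21.5, 19.99 and 27.3 FPKM in treated control against 16.6, 23.3 and 26.1 FPKM in untreated control libraries. The SMA groups were separate and the control groups overlapped, with an interaction of -0.53 ± 0.17 (SE; adjusted p = 0.806). Ccne1 had -0.30, Ccnh -0.31 and Cdk7 -0.12, each with an interval that includes 0. The kinases Cdk1, Cdk2, Cdk5 and Cdk9 had interactions of 0.04, -0.11, 0.20 and -0.12, and their pairs overlapped. Cdk9 was lower with treatment in all 6 pairs, by -0.22, -0.34 and -0.32 in SMA and -0.11, -0.28 and -0.15 in control.

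Voltage-gated calcium channel subunits had 15 of 20 interactions above 0 and a median of 0.19. Their median difference was 0.18 in SMA and -0.02 in control. None was called, and 3 had separate pairs, all higher in SMA, against 7.1% of all genes: the T-type channel Cacna1i, the auxiliary subunit Cacnb1 and the stargazin gene Cacng2. The pore subunits of the Cav2 channels on which the compound acts had overlapping pairs. Cacna1b, the N-type channel, had 14.9, 16.7 and 8.11 FPKM in treated SMA against 7.22, 9.54 and 10.9 FPKM in untreated SMA libraries, and 15.3, 11.8 and 12.3 FPKM in treated control against 18.3, 12.7 and 11.4 FPKM in untreated control libraries. SMA pairs 1 and 2 were higher with treatment and pair 3 lower, so the interaction of 0.52 had a wide interval, -0.18 to 1.22. Cacna1a, the P/Q-type channel, had 0.04 and Cacna1e, the R-type channel, -0.14. Cacna2d2, an auxiliary subunit that brings channels to the membrane, had the lowest p of the list, with an interaction of 0.58 ± 0.21 (SE; limma unadjusted p = 0.023, adjusted p = 0.806).

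Genes of the presynaptic release machinery had 34 of 40 interactions above 0, with a median of 0.15. The median was 0.06 without SMA pair 2 (28 of 40 above 0), 0.22 without SMA pair 3, and 0.09 with the common FPKM sum (31 of 40). The median difference was 0.22 in SMA and 0.08 in control. By pair it was 0.27, 0.39 and 0.10 in SMA and 0.04, 0.09 and 0.09 in control, so that SMA pairs 1 and 2 carried most of it and SMA pair 3 was close to control pairs 2 and 3. In SMA 28 of 40 members were higher with treatment in all 3 pairs, against 19.4% of all genes, and in control 7 of 40, against 8.25%. None was called. Without scaling, pairs did not overlap in 8 members, all higher in SMA, which is 20% of the list against 7.1% of all genes. These were Snap25, Syn2, Syt11, Sv2a, Unc13a, Cplx1, Sncb and Syngr1. The counts of separate pairs in this and the other lists were not repeated with scaled libraries. Over all genes the excess higher in SMA was smaller, absent or reversed with scaling.

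Unc13a (chromosome 8, 71624417 to 71671757), which primes synaptic vesicles for release, had the lowest p of these. It had 11.8, 14.1 and 13.8 FPKM in treated SMA against 9.24, 8.96 and 8.97 FPKM in untreated SMA libraries, and 17.4, 14.2 and 11.01 FPKM in treated control against 16.7, 13.9 and 12.6 FPKM in untreated control libraries. Treated and untreated SMA libraries did not overlap, and control libraries did. The interaction was 0.53 ± 0.15 (SE; 95% interval 0.19 to 0.87; limma unadjusted p = 0.0065, adjusted p = 0.806). Snap25, a core protein of the vesicle fusion complex, had 87.7, 78.03 and 61.1 FPKM in treated SMA against 68.9, 56.4 and 52.6 FPKM in untreated SMA libraries. In control it had 143, 90.3 and 80.3 FPKM when treated and 125, 83.9 and 83.5 FPKM when untreated. The Snap25 differences, 0.34, 0.46 and 0.21 in SMA and 0.19, 0.11 and -0.06 in control, lay close together, and the interaction of 0.26 had an interval that includes 0, -0.04 to 0.56. Syngr1, a vesicle membrane protein, and Sncb, which encodes beta-synuclein, had interactions of 0.70 and 0.49.

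The summed level of the 40 presynaptic genes gives the size of these differences. It was 1410, 1491 and 1120 FPKM in treated SMA against 1124, 1031 and 1049 FPKM in untreated SMA libraries, and 2088, 1692 and 1487 FPKM in treated control against 1907, 1582 and 1313 FPKM in untreated control libraries. Every untreated SMA library was below every control library in this sum, and the interaction uses these same untreated libraries. In bulk RNA, fewer neurons in a culture and less of these transcripts per neuron cannot be told apart. The summed astroglia markers were 734, 646 and 921 FPKM in treated SMA against 737, 733 and 937 FPKM in untreated SMA libraries, and 441, 625 and 612 FPKM in treated control against 573, 652 and 630 FPKM in untreated control libraries. All 6 pairs were lower with treatment in this sum. The part of these markers in the neuronal differences was not tested.

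**Figure D3:**
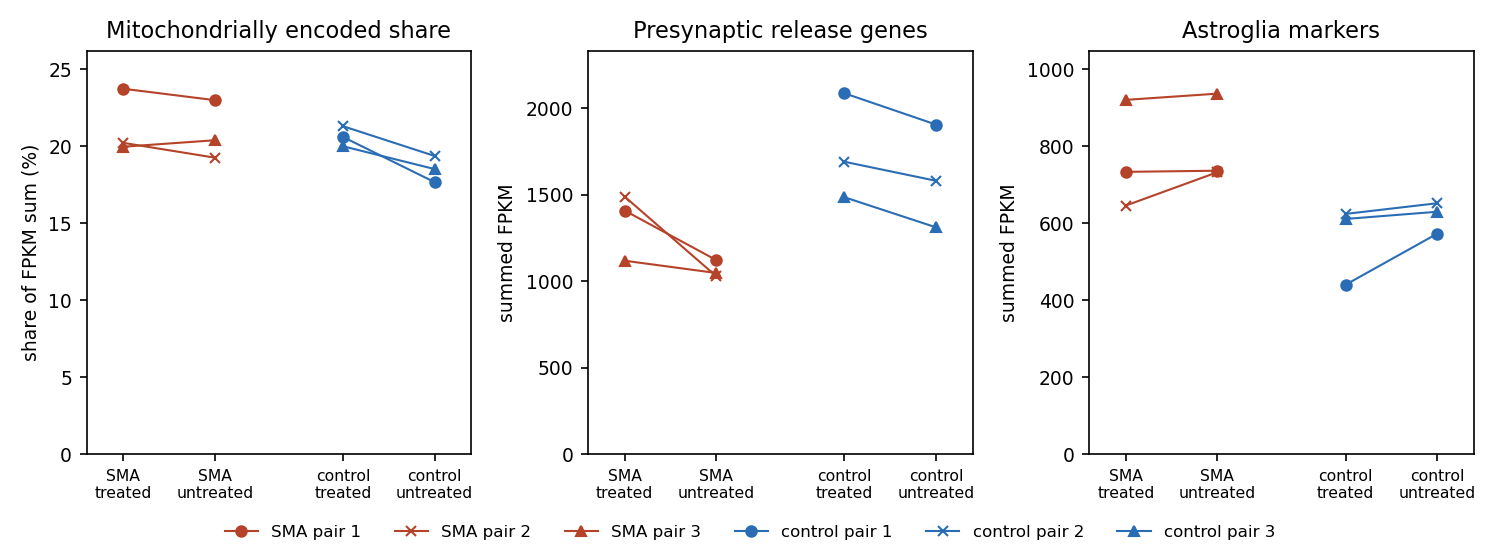
Share of mitochondrially encoded transcripts in the FPKM sum, summed FPKM of the 40 presynaptic release genes and summed FPKM of the astroglia markers, in each of the 12 libraries. Lines join the treated and untreated library of a pair. The presynaptic sum is higher with treatment in all 6 pairs, most in SMA pair 2, and the mitochondrial share is higher with treatment in all 3 control pairs and in 2 SMA pairs.

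The neuronal cytoskeleton and axonal transport list resembled the presynaptic one. Interactions were above 0 in 33 of 38 members, with a median of 0.17, a median difference of 0.20 in SMA and 0.04 in control, and 0 called. By pair the median difference without scaling was 0.23, 0.25 and 0.09 in SMA and 0.02, 0.02 and 0.06 in control. The lowest SMA pair, 0.09, thus lay a little above the highest control pair, 0.06. Whether the pairs stay separate with scaled libraries was not tested. The median interaction was 0.11 without SMA pair 2 and 0.11 with the common FPKM sum, each with 27 of 38 above 0. In SMA 26 of 38 members were higher in all 3 pairs, against 19.4% of all genes, and in control 9 of 38, against 8.25%. Without scaling, pairs did not overlap in 11 members (28.9%), all higher in SMA, against 7.1% of all genes. They were the neurofilament genes Nefl and Nefm, the growth cone gene Gap43, the tubulin genes Tubb3 and Tubb2a, and Stmn3. The others were the kinesin genes Kif1a, Kif5a, Kif5c and Klc1, and Dpysl3.

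Nefl (chromosome 14, 68083863 to 68089095), the light neurofilament subunit, had 27.8, 23.2 and 25.4 FPKM in treated SMA against 20.5, 15.01 and 17.9 FPKM in untreated SMA libraries. In control it had 32.97, 27.6 and 22.3 FPKM when treated and 30.9, 26.9 and 22.4 FPKM when untreated. The SMA groups were separate, and the treated and untreated control libraries of each pair were nearly equal. The interaction was 0.46 ± 0.13 (SE; 95% interval 0.17 to 0.75; limma unadjusted p = 0.0058, adjusted p = 0.806). Nefm, whose listed span overlaps that of Nefl on the other strand, had 0.35, with an interval of -0.02 to 0.71. Gap43 had 179, 148 and 126 FPKM in treated SMA against 135, 110 and 110 FPKM in untreated SMA libraries, and 230, 166 and 153 FPKM in treated control against 236, 154 and 136 FPKM in untreated control libraries, an interaction of 0.26.

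**Figure D4:**
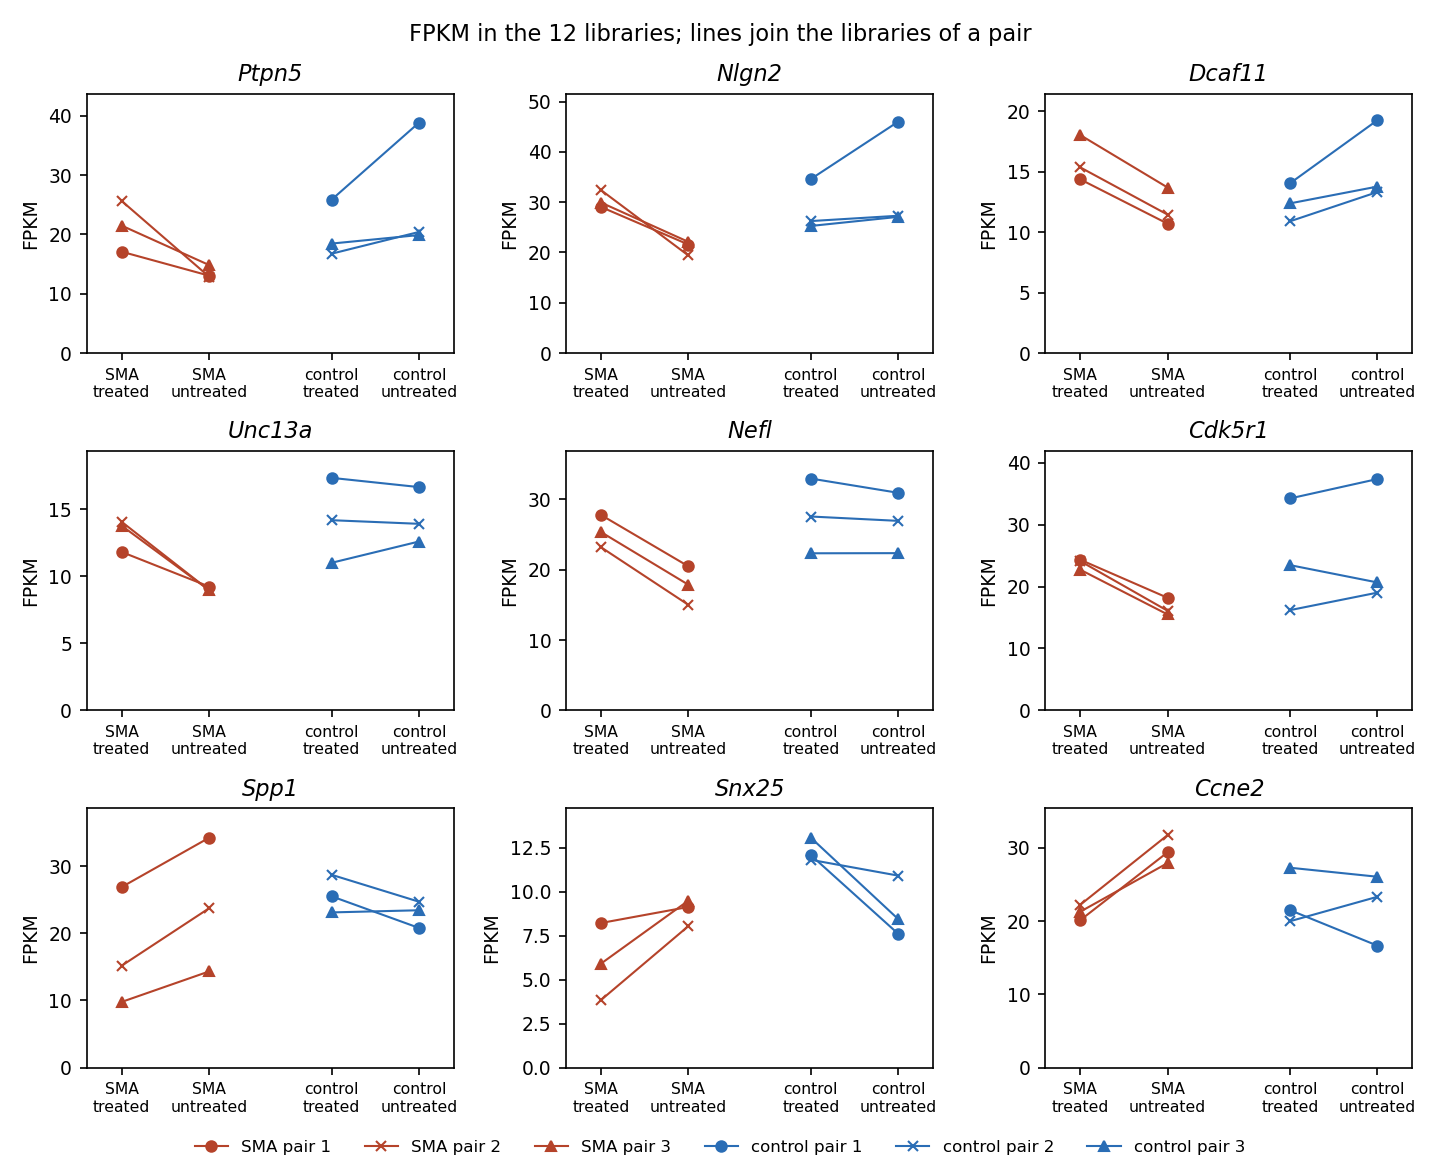
FPKM of 9 genes in the 12 libraries, with treated left of untreated in each genotype and lines joining the libraries of a pair. In Ptpn5, Nlgn2, Dcaf11, Unc13a, Nefl and Cdk5r1 the SMA lines are higher at the treated end, and in Spp1, Snx25 and Ccne2 they are lower there. None of the interactions had an adjusted p under 0.05.

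Other neuronal lists had medians nearer to that of all genes. Sodium and potassium channels had 18 of 35 interactions above 0 and a median of 0.03, and neurotransmitter receptors 23 of 41 and a median of 0.04, against 55.5% and 0.03 for all genes. Without control pair 1 the channels had 22 of 35 above 0 and a median of 0.09, and the receptors 31 of 41 and 0.12. Without control pair 3 the medians were -0.02 and -0.03, and with the common FPKM sum -0.03 and -0.02. In the receptor list 17 of 41 members were higher with treatment in all 3 SMA pairs and 15 of 41 in all 3 control pairs. In the receptor list Grin2d, a subunit of the NMDA receptor, had 0.77, with an adjusted p of 0.806. Axon guidance genes had 31 of 48 above 0 and a median of 0.10.

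Of the motoneuron markers 11 reached the level for testing, and all 11 had an interaction above 0, with a median of 0.19 and 0 called. With each of the 3 scalings 10 of 11 were above 0, and without control pair 1 or without control pair 3 it was 9 of 11. The defining markers named above were not among them, and which cells of the cultures expressed these 11 genes was not tested. The median difference by pair was 0.17, 0.16 and 0.15 in SMA and -0.06, 0.01 and -0.07 in control. Ache, the enzyme that breaks down acetylcholine, had 10.2, 9.96 and 10.15 FPKM in treated SMA against 5.75, 6.29 and 6.999 FPKM in untreated SMA libraries, and 10.7, 10.6 and 8.903 FPKM in treated control against 13.5, 9.69 and 7.67 FPKM in untreated control libraries. The treated SMA libraries were within the range of the control libraries and the untreated ones below it, with an interaction of 0.60 ± 0.18 (SE; limma unadjusted p = 0.0081, adjusted p = 0.806). Mmp9, a matrix protease found in fast motoneurons, had 1.07, 1.098 and 1.08 FPKM in treated SMA against 0.74, 0.83 and 0.79 FPKM in untreated SMA libraries, and 0.95, 0.58 and 1.22 FPKM in treated control against 2.199, 2.28 and 1.44 FPKM in untreated control libraries. At these low levels both genotypes' groups were separate, in opposite directions, with an interaction of 0.86 ± 0.25 (SE; adjusted p = 0.806).

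Markers of spinal interneurons had 15 of 18 interactions above 0 and a median of 0.14, with a median difference of 0.29 in SMA and 0.12 in control. Without SMA pair 2 it was 10 of 18 and 0.05, without SMA pair 3 16 of 18 and 0.27, and with the common FPKM sum 14 of 18 and 0.08. By pair it was 0.35, 0.52 and 0.14 in SMA and 0.01, 0.13 and 0.12 in control. Slc32a1, the vesicular transporter of GABA and glycine, had 18.96, 16.9 and 15.4 FPKM in treated SMA against 13.02, 10.98 and 11.6 FPKM in untreated SMA libraries, and 20.5, 18.2 and 14.96 FPKM in treated control against 30.1, 16.5 and 13.6 FPKM in untreated control libraries. Treated SMA libraries were all above untreated ones, and the interaction of 0.58 ± 0.20 (SE) had an adjusted p of 0.806. The transcription factor genes Lhx5 and Tlx3 also had separate pairs, with 0.52 and 0.59. Tac1, the precursor of substance P, was higher with treatment in all 6 pairs, by 0.65, 1.06 and 0.35 in SMA and 1.05, 0.25 and 0.53 in control, and its interaction of 0.08 had an interval of -0.45 to 0.62.

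**Figure D5:**
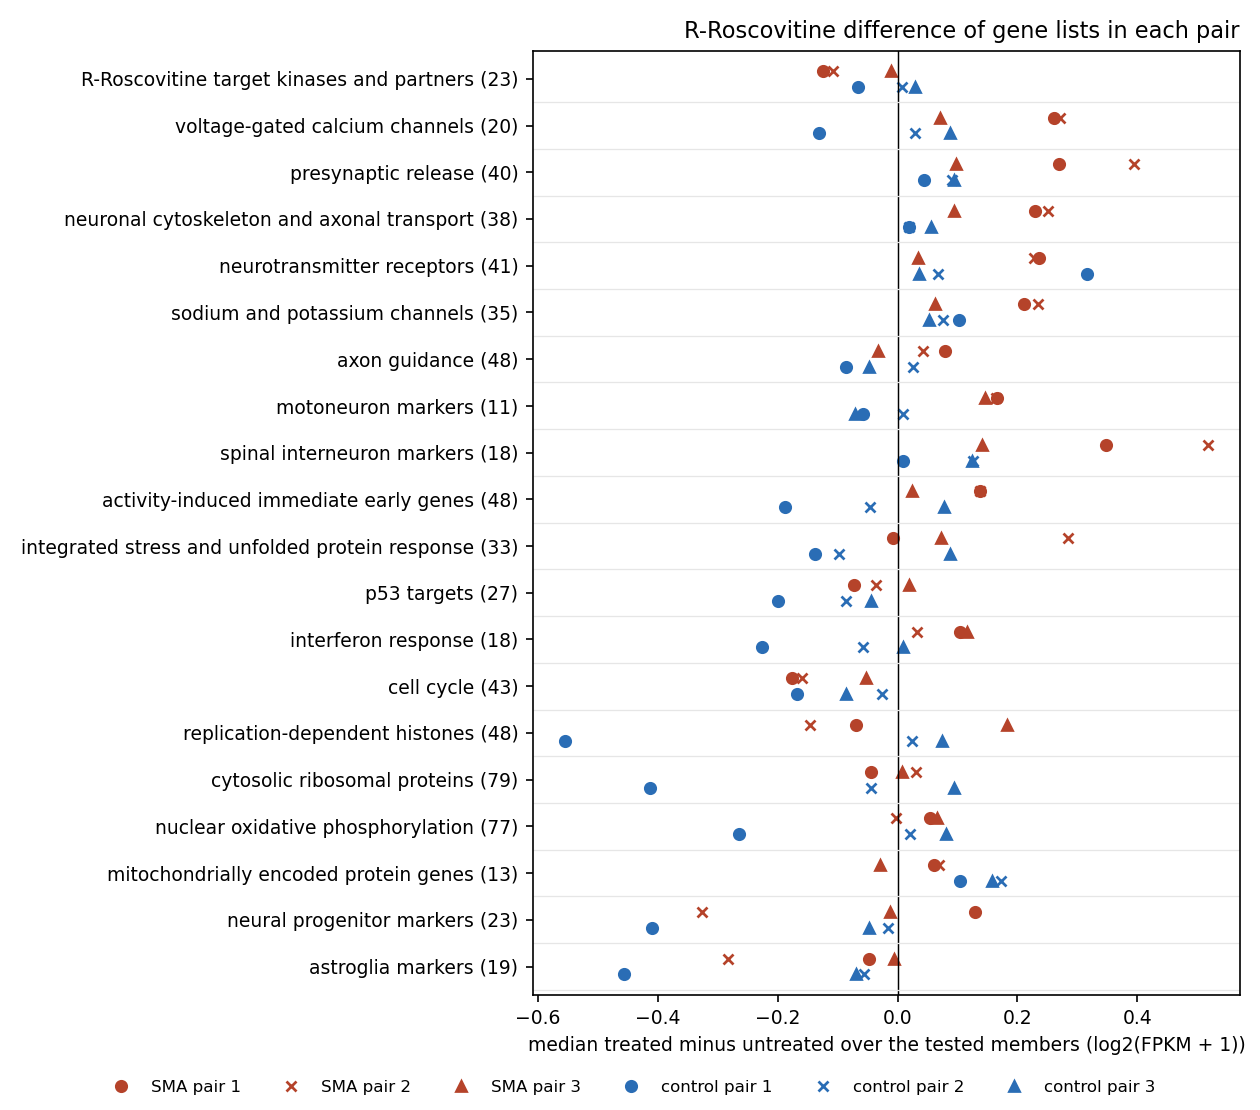
Median treated minus untreated difference, in log2(FPKM + 1), over the tested members of 20 of the 34 gene lists, for the 3 SMA pairs (red, upper) and the 3 control pairs (blue, lower). The number of tested members follows each name. Without scaling, SMA pairs lie right of control pairs for the presynaptic, cytoskeleton, motoneuron, interneuron and interferon lists, by very little for the presynaptic and interneuron lists. SMA pairs lie left of control pairs for the mitochondrially encoded genes. Control pair 1 lies far left for histone, ribosomal, progenitor and astroglia lists.

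Activity-induced immediate early genes had 42 of 48 interactions above 0 and a median of 0.12, against 31 of 48 and 0.09 without control pair 1. Without SMA pair 2 it was 34 of 48 and 0.09, and with the common FPKM sum 32 of 48 and 0.05. The classic members Fos and Egr1 had interactions of 0.04 and 0.32 with overlapping pairs. Fos varied far more between libraries of a group than within pairs, with 17.8, 8.398 and 5.36 FPKM in treated SMA against 15.6, 7.53 and 4.63 FPKM in untreated SMA libraries, and 46.9, 87.5 and 11.6 FPKM in treated control against 50.6, 82.5 and 8.51 FPKM in untreated control libraries. Each treated SMA library was slightly above its own partner. Jun, its partner in the AP-1 transcription factor, was higher in all SMA pairs and lower in all control pairs, with an interaction of 0.45 ± 0.19 (SE; adjusted p = 0.806). Vgf, a secreted neuropeptide precursor, had 0.43, with separate pairs.

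The integrated stress and unfolded protein response had 28 of 33 interactions above 0 and a median of 0.13. Without SMA pair 2 it was 23 of 33 and 0.09, and with the common FPKM sum 22 of 33 and 0.07. Pairs were separate in 0 members, against 7.1% of all genes higher in SMA and 4.42% lower. By pair the median difference was -0.01, 0.28 and 0.07 in SMA and -0.14, -0.10 and 0.09 in control. Atf5, a transcription factor of this response, had 74.04, 180 and 73.4 FPKM in treated SMA against 56.7, 102 and 46.8 FPKM in untreated SMA libraries, and 85.9, 50.1 and 157 FPKM in treated control against 159, 61.9 and 115 FPKM in untreated control libraries. All SMA pairs were higher with treatment and control pairs went both ways, with an interaction of 0.86 ± 0.29 (SE; adjusted p = 0.806). Targets of p53 had 18 of 27 above 0 and a median of 0.10. Short-lived transcripts sensitive to Cdk9 had 11 of 18 and 0.09. Among them Bcl2l1, an inhibitor of apoptosis, had 0.33, and Mcl1, another, -0.23.

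Cell cycle genes, expressed in dividing cells, had 20 of 43 interactions above 0 and a median of -0.03. The median difference was -0.14 in SMA and -0.08 in control. In all 3 SMA pairs 21 of 43 members were lower with treatment, against 17% of all genes, and in all 3 control pairs 16 of 43, against 13.4%. Pairs were separate in 6 members, with E2f1 higher in SMA and the others, among them Top2a, Ccne1, Ccne2 and Pcna, lower, against 7.1% and 4.42% of all genes. Top2a, the topoisomerase of mitosis, had 57.2, 75.97 and 77.3 FPKM in treated SMA against 80.6, 98.9 and 89.5 FPKM in untreated SMA libraries, and 71.2, 63.5 and 82.7 FPKM in treated control against 71.7, 65 and 91.2 FPKM in untreated control libraries. It was lower with treatment in all 6 pairs, more so in SMA, with an interaction of -0.30 ± 0.13 (SE; limma unadjusted p = 0.047, adjusted p = 0.806).

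In several lists the interaction was smaller or below 0 without control pair 1, the pair in which their treated library was lowest against its partner. Cytosolic ribosomal protein genes had 57 of 79 interactions above 0 and a median of 0.10, and 28 of 79 and -0.04 without that pair. Their median difference was -0.41 in control pair 1 and between -0.04 and 0.09 in the other 5 pairs. Replication-dependent histone genes had a median of 0.12, and -0.06 without it, with -0.55 in control pair 1. The progenitor list had 14 of 23 above 0 and the astroglia list 12 of 19, and without that pair 6 of 23 and 7 of 19. Nuclear genes of oxidative phosphorylation had a median of 0.10, and 0.01 without it. Interferon response genes had 12 of 18 above 0 and a median of 0.16, and 10 of 18 and 0.07 without it. Without scaling, 5 of 18 had separate pairs, all higher in SMA, against 7.1% of all genes, among them Bst2, Ifi35, Xaf1 and H2-D1.

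Mitochondrially encoded protein genes had 10 of 13 interactions below 0 and a median of -0.08. Without control pair 1 all 13 were below 0 and the median was -0.10, and without SMA pair 3 the median was -0.03. Their median difference by pair was 0.06, 0.07 and -0.03 in SMA and 0.10, 0.17 and 0.16 in control. None was called. Pairs did not overlap in 4 of the 13, against 4.42% of all genes: mt-Nd3, mt-Co1, mt-Co3 and mt-Atp6. For mt-Co1, a subunit of cytochrome c oxidase, the differences were -0.01, 0.04 and -0.06 in SMA and 0.14, 0.12 and 0.15 in control, with an interaction of -0.15 ± 0.15 (SE; 95% interval -0.49 to 0.20). These genes share the mitochondrial genome and are not independent of the mitochondrial share given above.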

How the data were processed

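RNA of 12 samples was extracted with a Nucleospin kit and made into libraries with Lexogen's mRNA-Seq kit V2, per the labels' protocols. The authors deposited FPKM per gene from Cufflinks 2.2.1 on GRCm38, after Trim Galore 0.4.0, per the submitters' processing notes. How reads were aligned, how long they were and whether strand was used is not given in the sources used here. FPKM of 19 identifiers listed on several lines were summed, small RNA genes were left out, and values with a Cufflinks status other than OK were kept (27 genes). Depth was inferred as 19.5 to 28.7 M reads, but only 36.8% to 39.7% of low values were whole reads within 0.01, so no count test was used. Cufflinks' own interval had a median half-width of 9.04% to 11.1% in expressed genes and covers counting error only.

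Genes at 1 FPKM or more in at least 3 libraries were tested, 14982 in all, on log2(FPKM + 1) without scaling. The fit was limma 3.58.1 in R 4.3.3 (two-sided, intensity trend) with 6 pair terms and 1 treatment term per genotype. The numbers were taken as pairs by the definition of the comparison, and the labels do not say what a number marks. Within a genotype, libraries that share a number deviated together from their group means (r = 0.24 to 0.60 in the 6 pairs). The lowest of these r was that of control pair 1. Across genotypes, libraries that share number and treatment had r = -0.06 to 0.30, so the ranges overlap. The fit was also run on simulated libraries with planted interactions far larger than the median seen here and noise alike in every pair. That run cannot show how well small interactions are found in these libraries. Single values were compared by exact permutation of the 6 differences, in which 3 against 3 cannot go below p = 0.1. Lists were described by counts and medians, with no test. Alternatives were 3 scalings, 2 pseudocounts, 2 filters, other or no pairing, library weights, robust variances and leaving out each pair.

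Named are the 10 genes of lowest p in each direction, the 3 largest interactions in each direction at 10 FPKM or more, Smn1, and in each list the first members and that of lowest p. Other list members were named after their values were seen. A few list members are counted but not reported here by name. The members and lists were chosen with earlier results of these data known. Gene positions are those of the deposited tables, and overlaps are from GENCODE M21. Tables and figures were made with Python 3.11.15, pandas 2.3.3, scipy 1.17.1 and matplotlib 3.10.9.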

Additional observations from a re-analysis of the deposited data

Results flagged for a closer look

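In 25 of the genes named above or listed first in a gene list, every SMA pair moved one way with treatment and every control pair the other way. The difference between genotypes was tested by limma, and none of the 25 had an adjusted p under 0.05. They include 6 of the 10 genes of lowest p above 0 and 9 of the 10 below 0. Those genes were picked by p from the same 6 differences, which favours such movement. The count of 25 is therefore no support for an interaction and cannot be compared with the shares of all genes. Over all genes, 269 (1.8%) moved up in SMA and down in control in this way and 169 (1.13%) down in SMA and up in control, and with quantile normalization 212 and 237.

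Of the genes of lowest p, the interaction was 0.919 for Ptpn5, 0.668 for Dcaf11, 0.953 for Otud7a, 0.699 for Nlgn2, 0.813 for 2210417K05Rik and 0.876 for Ccdc116. Below 0 it was -1.1 for Gm16053, -1.01 for Gm26790, -1.56 for Gm14620, -0.976 for Snx25, -1.07 for Gm4899, -0.629 for Gm10074, -0.743 for Kbtbd8, -0.709 for Nudt7 and -0.563 for Cnot2. Gm16053, Gm26790, Gm14620 and Gm4899 averaged under 3 FPKM.

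Of the list members, Jun had 0.448, Bcl2l1 0.335, the stress and differentiation gene Ndrg1 0.422, the respiratory chain genes Ndufb9 and Atp5c1 0.467 and -0.135, and the class I antigen gene H2-D1 0.426. The neurotrophin receptor genes Ntrk3 and Ngfr had -0.253 and 0.349, Mmp9 had 0.856, and Hes5, a Notch target of progenitors, had -0.251. Hes5 was at 0.94, 0.345 and 2.92 FPKM in treated SMA against 1.12, 0.77 and 2.95 FPKM in untreated SMA libraries, and at most 0.49 FPKM in any control library. Hes5 reached the level for testing only through SMA libraries, so its opposite movement is given as values only.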

How the results depend on the processing

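Under all 18 alternatives the interaction had 0 called genes. Genes with an unadjusted p under 0.05 numbered 742, and 1166 without the filter, 279 with no replicate block, 401 with the replicate block across genotypes, 2406 with library weights and 443 to 1491 with a pair left out. Pairing changed no call of the interaction. With library weights 657 genes were called in control and 99 in the averaged response. The SMA response had 0 to 1 with a pair left out. With a pair left out, 3 differences meet 2 and separation is easier by construction: 1648 to 2430 genes were then higher in SMA and 1085 to 1754 lower (999 lower without the filter), and 447 to 907 and 268 to 678 moved opposite ways. The Smn1 interaction ranged over -0.3794 to 0.0761, with its sign turned without control pair 1, and that of the Gm26924 share over -0.2726 to 0.3011 points, with the sign turned without SMA pair 3 and at -0.0675 without control pair 3. Of 457 values of 26 named genes, 456 kept direction and side of the threshold.

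The median of all genes was 0.0316, and 0.0085 with median-of-ratios scaling, -0.0254 with a common FPKM sum without mitochondrially encoded genes and -0.0025 with quantile normalization. List medians moved with that common FPKM sum to -0.1058 for target kinases, 0.0224 for Cdk9-sensitive transcripts, -0.0057 for cholesterol synthesis, -0.0295 for heat shock (-0.0655 with quantile normalization), -0.145 for mitochondrially encoded genes, -0.0396 for SMA modifiers, 0.0426 for axon guidance, 0.1058 for cytoskeleton and 0.1337 for motoneuron markers. The motoneuron list had 0.1599 with quantile normalization, 0.2446 and 0.0951 with pseudocounts 0.1 and 5, and 0.2242 at 5 FPKM or more, where calcium channels had 0.3057 and sensory neuron markers 0.415. No macrophage marker passed that filter. With a pair left out, medians ranged over -0.1038 to 0.0065 for target kinases, 0.1436 to 0.3168 for calcium channels, -0.0908 to 0.0526 for cell cycle, 0.0015 to 0.087 for cholesterol synthesis, 0.0313 to 0.225 for hypoxia, -0.1037 to -0.0279 for mitochondrially encoded genes, -0.0249 to 0.0935 for SMA modifiers, 0.1076 to 0.2308 for cytoskeleton, 0.1282 to 0.2356 for motoneuron, -0.0503 to 0.2996 for sensory, -0.3199 to 0.157 for Schwann cell and 0.0009 to 0.1695 for fibroblast markers. The causes were not tested. The median 95% interval of an interaction was ±0.42.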

Other observations

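The partners of SMN itself showed no common direction. Of 28 genes of the SMN complex and of spliceosomal ribonucleoproteins, 15 had an interaction above 0, and the median was 0.02, against 0.03 over all genes. Pairs were separate in 3 of them, with Snrpa at 0.35 and Snrpe and Snrpg below 0, against 7.1% of all genes higher in SMA and 4.42% lower. Of 12 tested modifiers of spinal muscular atrophy, 6 had an interaction above 0 and the median was 0.03. Uba1, which activates ubiquitin, had 0.12 and Hnrnpr, a partner of SMN in axons, -0.22. Neurotrophic factor receptors and ligands had 13 of 24 above 0 and a median of 0.03, cholesterol synthesis 14 of 23 and 0.06, heat shock 10 of 16 and 0.03, and hypoxia and glycolysis 17 of 24 and 0.16, or 0.03 without control pair 1.

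Markers of non-neuronal cells other than astroglia were few among the tested genes. Schwann cell and neural crest markers summed to 436 to 898 FPKM in treated SMA, 601.5 to 1103 in untreated SMA, 331 to 447 in treated control and 360.2 to 453 in untreated control libraries. Their median interaction over 5 tested members was -0.16, and -0.04 without control pair 1. Fibroblast and meningeal markers had 8 of 13 interactions above 0 and a median of 0.16. Pairs were separate in 0 of the 13 fibroblast and meningeal markers, against 7.1% of all genes higher in SMA and 4.42% lower. In the other lists of this paragraph, separate pairs were found for Ngfr (Schwann cell list), Aif1 (macrophage list) and P2rx3 (sensory list), all higher in SMA. Muscle markers had 5 of 6, oligodendrocyte markers 5 of 7, sensory neuron markers 4 of 5, endothelial markers 2 of 3 and macrophage markers 2 of 5 above 0. Without control pair 1 these counts were, in the same order, 2 of 6, 3 of 7, 4 of 5, 1 of 3 and 3 of 5. The median interaction of the sensory list was 0.01. In the sensory list P2rx3, an ATP receptor, had 4.75, 8.84 and 3.50 FPKM in treated SMA against 2.70, 4.43 and 1.71 FPKM in untreated SMA libraries, and 8.49, 1.38 and 9.70 FPKM in treated control against 9.05, 2.55 and 8.07 FPKM in untreated control libraries. Its interaction was 0.88 ± 0.22 (SE; limma unadjusted p = 0.0029, adjusted p = 0.806).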
